A study of Mus musculus with 6 samples.

Results

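Chemokine ligands are small secreted proteins that draw leukocytes along a concentration gradient, and 10 of their genes were described here in mouse microglia. The genes were Ccl2, Ccl3, Ccl4, Ccl6, Ccl7, Ccl9, Ccl12, Cxcl2, Cxcl16 and Pf4, found by symbol in the count table, where all 10 of 48587 genes were present. Microglia, the resident macrophages of the brain, had been sorted by flow cytometry at postnatal day 42 from C57BL/6 mice, and their polyadenylated RNA was sequenced. The 3 wild-type samples are compared with 3 samples from mice labelled Lyl1 KO. The Lyl1 protein is a blood-cell transcription factor of the basic helix-loop-helix class. The sources used here do not state how the allele was made, whether animals were pooled or which gate was used for the sort. Nothing says that the samples came from separate animals, so the p-values reflect spread among the 6 libraries and part of that spread may be technical.

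Chemokines bind G protein-coupled receptors on the cell they attract and are grouped by the spacing of their first cysteines into CC and CXC ligands. CCL2, CCL7 and CCL12 act on the monocyte receptor CCR2, and CCL3, CCL6 and CCL9 on CCR1. CXCL2 draws neutrophils through CXCR2, CXCL16 is a membrane-bound ligand of CXCR6 that can be shed, and PF4 is platelet factor 4. Resting microglia carry some of these transcripts, and inflammatory signals acting through NF-kB, AP-1 or interferon induce others.

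Total counts ran from 12753945 to 27378614 per sample, and 12827 to 15652 genes were detected. Levels are given as CPM, counts scaled to a common library size by edgeR's TMM method, as mean ± SD over n = 3 samples. A count of 0 allows up to 3 reads in a library, which is 0.104 to 0.264 CPM and covers counting error only. Lyl1 itself had 683, 1399 and 839 reads in wild-type samples 1 to 3 and 205, 237 and 410 in knockout samples 1 to 3, so Lyl1 reads were fewer in each knockout library than in any wild-type one and were not absent. The microglia markers P2ry12, Tmem119, Cx3cr1, Csf1r, Sall1 and Fcrls together lay between 31641 and 34184 CPM in wild type and between 29687 and 33471 in knockout. Within that sum Fcrls, an Fc receptor-like gene of microglia, was at 5469 ± 224 CPM in wild type against 3328 ± 782 in knockout, without overlap and with an unadjusted edgeR p of 0.00379, below that of any ligand. P2ry12 lay the other way without overlap, at 6729 ± 330 against 7825 ± 944 CPM (unadjusted edgeR p of 0.108). Xist, the X-inactivation RNA, was at 349 CPM in knockout sample 1, at 412 in knockout sample 3 and at 0.203 in knockout sample 2, and between 0.382 and 1.41 in wild type. Knockout sample 2 was thus the only knockout sample that resembled the wild-type samples in this respect, and sex was not given in the labels used here.

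The bases before the start sites of Ccl6, Ccl9, Ccl12 and Ccl3 are shown because the first 3 of these genes had the lowest p between genotypes and the fourth, a neighbour of Ccl6, did not reach 0.05. RefSeq promoter entries on GRCm38.p6 matched 6 of the 10 genes by symbol. Capitals mark the E-box CANNTG, the hexamer that basic helix-loop-helix factors such as Lyl1 and its partners recognise, and each sequence gives the 250 bases before the start, 5′ to 3′ on the gene's own strand.
Ccl6, chr11:83593088-83593337, minus strand: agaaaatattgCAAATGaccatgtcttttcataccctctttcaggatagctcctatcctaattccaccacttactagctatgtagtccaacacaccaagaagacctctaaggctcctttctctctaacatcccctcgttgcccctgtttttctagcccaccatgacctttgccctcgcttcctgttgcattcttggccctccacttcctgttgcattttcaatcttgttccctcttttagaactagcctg
Ccl9, chr11:83578637-83578886, minus strand: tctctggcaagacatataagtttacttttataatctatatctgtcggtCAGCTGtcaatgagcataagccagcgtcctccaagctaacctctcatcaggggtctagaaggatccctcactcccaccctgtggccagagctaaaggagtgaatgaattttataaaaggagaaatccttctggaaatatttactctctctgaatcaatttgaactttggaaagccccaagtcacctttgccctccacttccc
Ccl12, chr11:82101595-82101844, plus strand: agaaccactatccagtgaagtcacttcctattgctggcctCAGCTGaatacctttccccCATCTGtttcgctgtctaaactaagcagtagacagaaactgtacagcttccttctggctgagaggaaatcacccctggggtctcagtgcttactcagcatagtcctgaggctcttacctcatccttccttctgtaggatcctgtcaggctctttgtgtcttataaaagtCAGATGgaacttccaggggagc
Ccl3, chr11:83649379-83649628, minus strand: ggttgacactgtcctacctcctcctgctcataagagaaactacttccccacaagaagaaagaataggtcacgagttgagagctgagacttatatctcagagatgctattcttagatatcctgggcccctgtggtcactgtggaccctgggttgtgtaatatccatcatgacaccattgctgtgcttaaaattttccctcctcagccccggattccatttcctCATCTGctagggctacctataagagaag

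Ccl12 held 3 E-boxes in this window and Ccl6, Ccl9 and Ccl3 held 1 each, while 66.2% of 32851 RefSeq promoters hold at least 1 in the same 250 bases. The genes with low p thus shared this hexamer with Ccl3 and with most promoters. The ETS core CTTCC, read by the macrophage factor PU.1 and its relatives, was searched on both strands and lay in 4 places before Ccl12, 2 before Ccl6 and 1 each before Ccl9 and Ccl3, against 64.1% of promoters with at least 1. The TATA letters TATAAAA were found before Ccl12 and Ccl9 and not in the windows of Ccl6 or Ccl3, against 5% of promoters. Of the same 4 windows, only that of Ccl9 held the AP-1 letters TGANTCA (6.7% of promoters) or the NF-kB consensus (7.3% of promoters), and none held the consensus of the interferon-stimulated response element (3% of promoters). Cxcl2, which had no reads, held the NF-kB consensus in 2 overlapping places. A match of letters describes the window only.

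Of the 10 genes 7 had enough reads to be tested, which took at least 10 reads at the median library size in 3 samples or more, and none passed the threshold of 0.05 on the adjusted p. The test was edgeR's quasi-likelihood F test over all 10394 genes that passed this filter, with Benjamini-Hochberg adjustment, and it called 0 of these genes (0%). Every adjusted p below from this test is 0.9999. Lyl1 itself had an unadjusted edgeR p of 0.0609 and was not called. In simulated data with the dispersions observed here, the test recovered 0 of 67 genes changed 2-fold and 0 of 67 changed 4-fold. The lack of calls therefore does not show that ligand levels were equal. At an unadjusted p under 0.05 there were 3 ligand genes, Ccl6, Ccl9 and Ccl12, all lower in knockout. Among all tested genes 1.67% of tested genes (174) were lower and 1.16% (121) higher at that level. Without wild-type sample 3 these numbers were 298 lower and 860 higher, of 11061 genes tested, with 2 ligand genes lower. limma-voom called 0 genes of the whole table and DESeq2 called 52 of the genes edgeR tested, with 0 ligand genes called by either. On that set of genes both also had 3 ligand genes lower at an unadjusted p under 0.05. The median log2 fold change of the 7 tested ligands was -0.86, knockout over wild type, and that of all tested genes was -0.03. The 7 were split 5 lower to 2 higher.

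**Figure D1:**
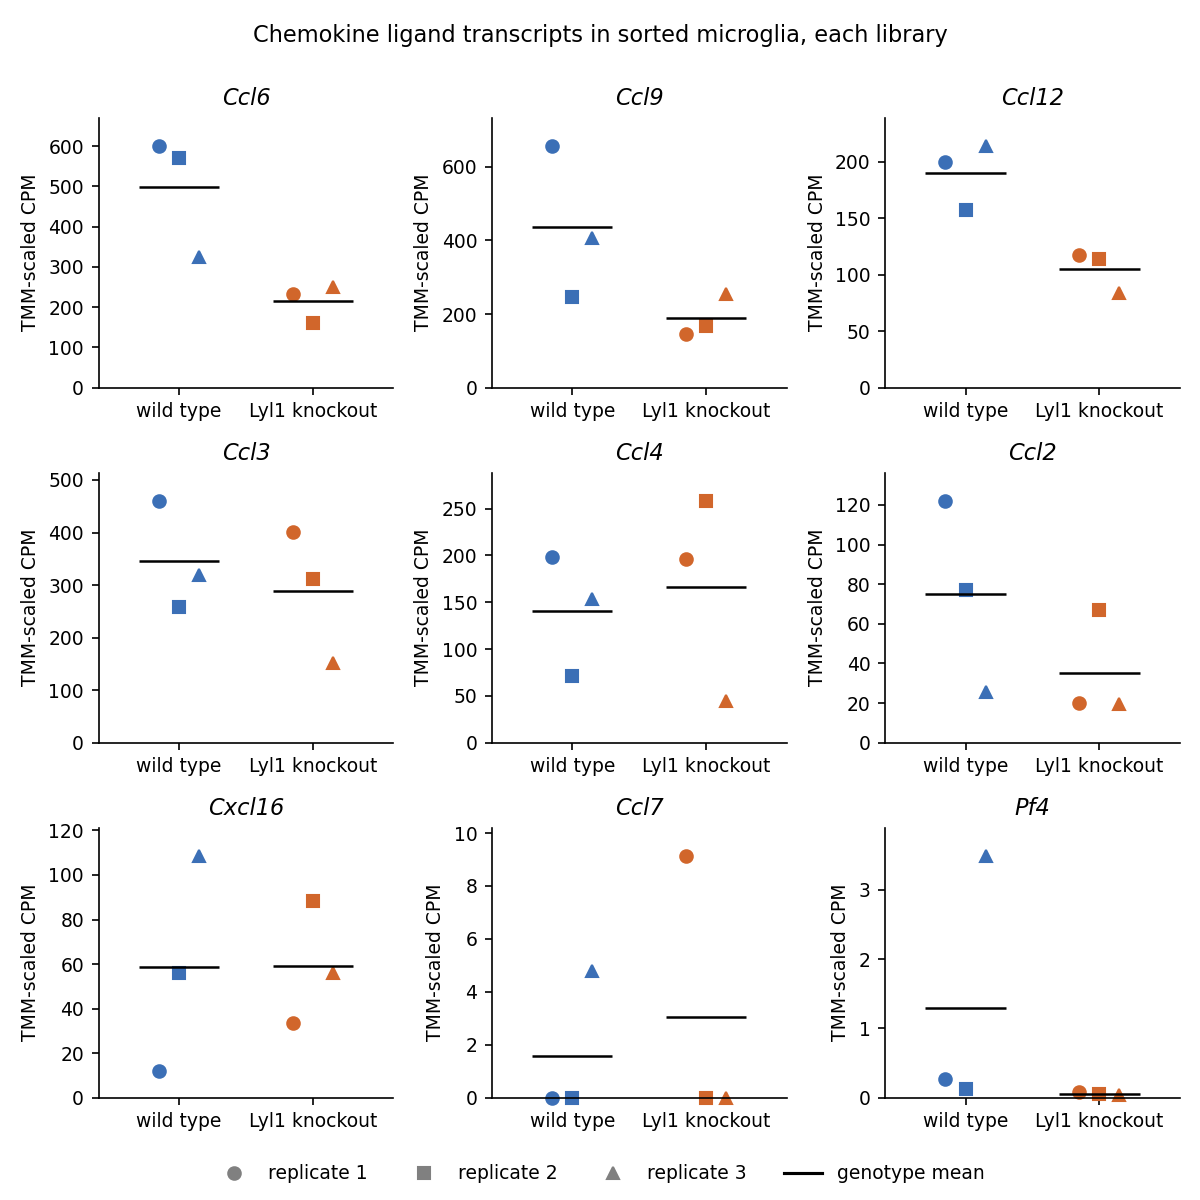
TMM-scaled CPM of 9 ligand genes in each library, with the genotype mean as a line and 1 symbol per replicate number. Each panel has its own linear axis from 0. Ccl6 and Ccl12 are the tested genes in which all 3 knockout samples lie under all 3 wild-type samples, while Ccl7 and Pf4 have a level above 1 CPM in 2 libraries and 1 library.

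Ccl6 and Ccl9 encode related CC ligands that are found in rodents and act on CCR1. Ccl6 (ENSMUSG00000018927.3, GRCm38 chromosome 11, 83587882 to 83593087, minus strand) collected 6797, 14386 and 6815 reads from wild-type samples 1 to 3, and 5284, 3157 and 7208 from knockout samples 1 to 3. That is 599, 571 and 325 CPM against 233, 160 and 251 CPM. All knockout samples lay under all wild-type samples, with wild-type sample 3 nearest to the knockout samples. The means were 499 ± 151 and 215 ± 47.8 CPM (SD, n = 3 each), 2.32-fold lower in knockout. On the log2 scale the difference was -1.22 (SE 0.33), and edgeR's unadjusted p was 0.00659, the smallest of the 7 tested ligands. The exact 2-sided permutation test of the CPM gave p = 0.1, the smallest that 3 against 3 samples allow. No sample decided the direction. It ran from -1.44 without wild-type sample 3 to -1.02 without knockout sample 2, with an unadjusted edgeR p from 0.00276 to 0.0281 when 1 sample was left out. E230016K23Rik, which overlaps Ccl6 on the opposite strand without sharing an exon base, had 0 reads in all samples.

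Ccl9 (ENSMUSG00000019122.8, chromosome 11, 83572919 to 83578636, minus strand) is the next ligand gene, 9.2 kb from Ccl6. It was at 655, 246 and 408 CPM in wild-type samples 1 to 3 and at 147, 166 and 256 CPM in knockout samples 1 to 3. Here the genotypes overlapped, because knockout sample 3 lay just above wild-type sample 2. The means were 436 ± 206 and 190 ± 58.0 CPM (SD, n = 3 each), 2.30-fold lower in knockout. The log2 difference was -1.20 (SE 0.42), and edgeR's unadjusted p was 0.0212. Leaving out wild-type sample 1, the highest, moved the log2 fold change to -0.77 and the unadjusted p to 0.0810, and without knockout sample 1 or 2 the unadjusted p was 0.0695 or 0.0668. The 2 genes did not keep a fixed ratio. Ccl6 over Ccl9 in CPM was 0.915, 2.33 and 0.797 in wild-type samples 1 to 3 and 1.58, 0.964 and 0.980 in knockout samples 1 to 3. Their sum lay between 733 and 1254 CPM in wild type and between 327 and 506 CPM in knockout.

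Ccl12, also called MCP-5, is a ligand of CCR2 and an interferon-responsive gene of macrophages. It lies on chromosome 11, 82101845 to 82103400, plus strand (ENSMUSG00000035352.3). It was at 200, 158 and 214 CPM in wild-type samples 1 to 3 and at 117, 114 and 83.7 CPM in knockout samples 1 to 3. The 2 genotypes did not overlap, and its samples were the least spread of the 7, with a coefficient of variation of 15.4% in wild type and 17.7% in knockout. The means were 191 ± 29.3 and 105 ± 18.5 CPM (SD, n = 3 each), a log2 difference of -0.86 (SE 0.36) for which edgeR's unadjusted p was 0.0458. That p moved above 0.05 in 10 of 14 alternatives, among them leaving out any sample but wild-type sample 2, and ran up to 0.165 without knockout sample 3. The exact permutation p was 0.1. Of all tested genes, 5.19% had all knockout samples under all wild-type samples, as Ccl6 and Ccl12 did, and 5.97% the reverse, as none of the tested ligands did.

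In knockout sample 2, the knockout sample with Xist as low as in wild type, Ccl6, Ccl9 and Ccl12 were at 160, 166 and 114 CPM, each under all 3 wild-type samples. Erythroid globin reads also differed between samples. The 5 erythroid markers Hbb-bs, Hbb-bt, Hba-a1, Hba-a2 and Alas2 summed to 227 and 65.2 CPM in knockout samples 1 and 2 and to 0.243 in knockout sample 3, against 0.159 to 1.23 CPM in wild type. In knockout sample 3, with globins as low as in wild type, Ccl6, Ccl9 and Ccl12 were at 251, 256 and 83.7 CPM. Ccl6 and Ccl12 were lower than every wild-type sample there too, and Ccl9 was not. For Ccl6 and Ccl12, whose genotypes did not overlap, this holds in any knockout sample, so it carries no information about Xist or globins. The genes were also singled out by their p in these same samples. Each of these comparisons rests on 1 knockout sample. The part of sex or of erythroid RNA in the ligand levels was not tested.

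**Figure D2:**
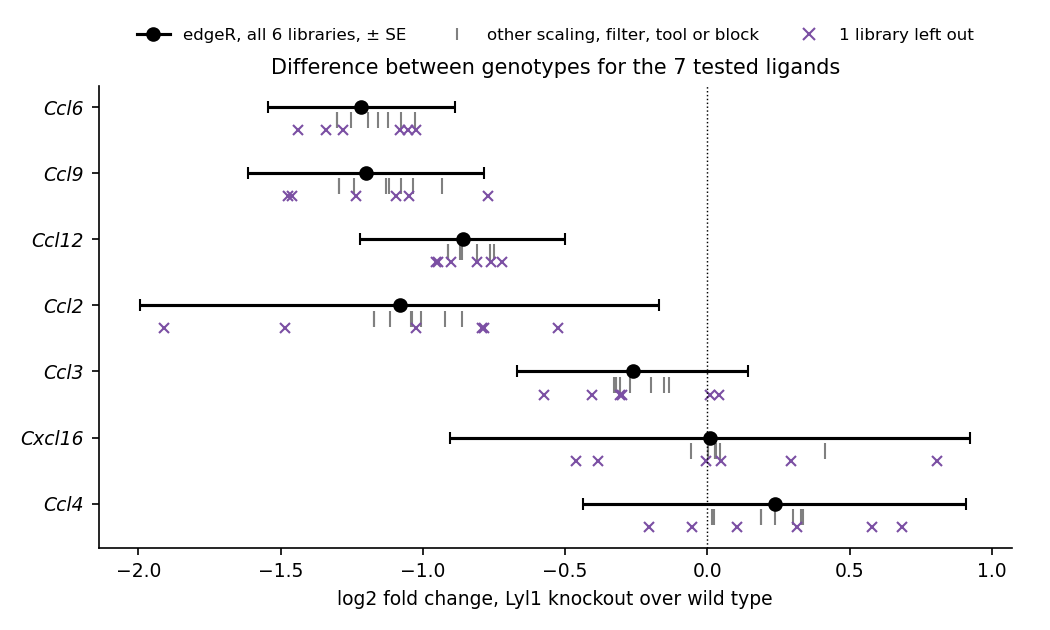
Log2 fold change of the 7 tested ligands, knockout over wild type. Black points with bars are the edgeR estimate ± its standard error from all 6 libraries, grey ticks are other scalings, filters, tools and the replicate block, and crosses leave out 1 library. Ccl6, Ccl9, Ccl12 and Ccl2 stay under 0 in all of these, while Ccl3, Ccl4 and Cxcl16 lie on both sides of 0.

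Ccl2, or MCP-1, is the main monocyte attractant of inflamed tissue (ENSMUSG00000035385.5, chromosome 11, 82035571 to 82037453, plus strand). It was at 122, 77.1 and 25.5 CPM in wild-type samples 1 to 3 and at 19.8, 66.9 and 19.3 CPM in knockout samples 1 to 3. Each genotype held low and high samples, with wild-type sample 3 among the low ones and knockout sample 2 among the high ones. The means were 74.8 ± 48.2 and 35.3 ± 27.3 CPM (SD, n = 3 each), and the log2 difference of -1.08 had an SE of 0.91. edgeR's unadjusted p was 0.271. Without wild-type sample 1 it was -0.53 and without knockout sample 2 it was -1.91. Gm17268 spans Ccl2 on the opposite strand, shares no exon base with it in GENCODE M21 and had 0 reads in all samples.

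Ccl3 and Ccl4, or MIP-1 alpha and beta, lie 13.2 kb apart on opposite strands of chromosome 11 and are induced together in activated microglia. Ccl3 (ENSMUSG00000000982.5, 83647844 to 83649355, minus strand) was at 459, 258 and 320 CPM in wild-type samples 1 to 3 and at 400, 311 and 152 CPM in knockout samples 1 to 3. Ccl4 (ENSMUSG00000018930.3, 83662584 to 83664683, plus strand) gave 198, 70.7 and 154 CPM in the wild-type samples, against 196, 258 and 44.6 in the knockout samples. Both genes were lowest in knockout sample 3, below every wild-type sample. In knockout samples 1 and 2 Ccl3 lay within the wild-type range, and Ccl4 lay within it in sample 1 and above it in sample 2. The log2 difference of Ccl3 was -0.26 (SE 0.41), with an unadjusted edgeR p of 0.537. That of Ccl4 was 0.24 (SE 0.67), with an unadjusted edgeR p of 0.736. These directions rest on single samples. Without knockout sample 3 the log2 fold change of Ccl3 was 0.04, and without knockout sample 2 that of Ccl4 was -0.21. Ccl3 over Ccl4 in CPM was 2.32, 3.65 and 2.08 in wild-type samples 1 to 3 and 2.05, 1.21 and 3.42 in knockout samples 1 to 3.

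Tissue dissociation is known to induce Ccl3 and Ccl4 along with immediate-early genes such as Fos and Jun. The 10 dissociation-induced genes listed (Fos, Fosb, Jun, Junb, Egr1, Ier2, Atf3, Dusp1, Hspa1a and Hspa1b) summed to 15060, 11601 and 5844 CPM in knockout samples 1 to 3 and to between 5403 and 6578 CPM in wild type. Ccl3 and Ccl4 together were at 596, 569 and 197 CPM in knockout samples 1 to 3 and at 657, 328 and 473 CPM in wild-type samples 1 to 3. Both sums were thus lowest in knockout sample 3 among the knockout samples. The sum of the 10 genes was higher in knockout samples 1 and 2 than in any wild-type sample, whereas the Ccl3 and Ccl4 sum was inside the wild-type range. Of the 10 genes 8 were higher in knockout, 4 of them at an unadjusted edgeR p under 0.05 (Fos, Jun, Junb and Egr1), and 0 passed the adjusted threshold. Of all 10394 tested genes 5063 were higher in knockout, and 121 (1.16%) were higher at that unadjusted p. In knockout sample 3 Fos (1025 CPM) and Jun (2115) lay within the wild-type range, Egr1 (734) under it and Junb (1280) above it. Fos was at 1248 ± 313 and 2585 ± 1500 CPM and Junb at 1016 ± 168 and 1494 ± 192 CPM (SD, n = 3 each). The part of dissociation in the ligand levels was not tested.

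Cxcl16 (ENSMUSG00000018920.11, chromosome 11, 70453983 to 70459984, minus strand) lies far from the other ligand genes. It was at 11.8, 56.0 and 108 CPM in wild-type samples 1 to 3 and at 33.4, 88.2 and 55.8 CPM in knockout samples 1 to 3. The means of 58.7 ± 48.3 and 59.1 ± 27.5 CPM (SD, n = 3 each) were almost equal, while the wild-type samples spanned a wider range than the knockout samples. The log2 difference was 0.01 (SE 0.91), with an unadjusted edgeR p of 0.991, and it turned to -0.46 without wild-type sample 1 and to 0.81 without wild-type sample 3. Of its merged exon bases 18.3% also belong to exons of Zmynd15 on the opposite strand. How the counting treated reads there is not stated in the labels. Zmynd15 had 6 reads in wild-type sample 3 and 0 in the other samples. Adam10 and Adam17, the sheddases of CXCL16, had means of 200 and 137 CPM in the wild-type samples, against 157 and 194 in the knockout samples, and neither passed the test.

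Ccl7, Pf4 and Cxcl2 had too few reads to be tested. Ccl7 (ENSMUSG00000035373.2, chromosome 11, 82045712 to 82047525), a neighbour of Ccl2 that attracts monocytes, had 100 reads in wild-type sample 3, 207 in knockout sample 1 and 0 in the other samples. It was thus found in 1 sample of each genotype, at 4.77 and 9.11 CPM, and Ccl2 was low in both of these samples. Pf4 (ENSMUSG00000029373.7, chromosome 5, 90772435 to 90773383) collected 3, 3 and 73 reads from wild-type samples 1 to 3, and 2, 1 and 1 from knockout samples 1 to 3. Apart from 3.48 CPM in wild-type sample 3, all of its values were at or under the limit of 3 reads. Cxcl2 (ENSMUSG00000058427.10, chromosome 5, 90903871 to 90905938) had 0 reads in all 6 samples. That allows up to 0.104 CPM in the deepest knockout sample and up to 0.264 CPM in wild-type sample 1.

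Pf4 is a marker of platelets and of border-associated macrophages, so their other markers were read beside it. Of the 9 platelet markers Gp1bb, Gp6 and Tubb1 had 0 reads in all samples, and Ppbp, the most abundant chemokine of platelets, had 1 read in wild-type sample 3 and none elsewhere. The sum of these 9 was 63.8 to 176 CPM in wild type and 58.8 to 82.0 CPM in knockout, most of it Gp9. Of the 8 border-associated macrophage markers Clec10a had 0 reads, and Cd163, Lyve1, Cbr2 and F13a1 had at most 2 reads in any sample. Ms4a7 had 113 reads in wild-type sample 3, the sample with Pf4, 2 in knockout sample 2 and 0 in the others. The sum over the list was 416 to 470 CPM in wild type and 177 to 408 CPM in knockout, and so was lower in every knockout sample. Most of it was Stab1, at 374, 430 and 390 CPM in wild-type samples 1 to 3 and at 173, 407 and 296 in knockout samples 1 to 3. Stab1 itself thus overlapped between genotypes, with an unadjusted edgeR p of 0.225. Mrc1, the mannose receptor, overlapped too. It was at 95.4, 0.318 and 20.1 CPM in wild-type samples 1 to 3 and at 3.48, 0.152 and 10.2 CPM in knockout samples 1 to 3. The part of these cells in the levels of Ccl6, Ccl9, Ccl12 and the other ligands was not tested. In these bulk samples fewer cells of a type and less RNA per cell cannot be told apart.

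Markers of monocytes, neutrophils, lymphocytes, astrocytes and neurons were scarce, and those of endothelial cells and oligodendrocytes were not. The 7 monocyte markers summed to 0.238 to 1.5 CPM in wild type and 0.356 to 6.91 CPM in knockout, led by Ccr2 in knockout samples 1 and 3. The 7 neutrophil markers summed to 0.0882 to 3.30 and 0.132 to 0.209 CPM, with S100a8, Ly6g and Ngp at 0 reads, and the 7 T, NK and B cell markers to at most 1.38 CPM, with Cd3e, Cd3g, Trac, Nkg7 and Ncr1 at 0 reads. Astrocyte and neuron markers reached at most 1.94 and 6.96 CPM in any sample. Endothelial markers summed to 26.1 to 154 CPM in wild type and 27.2 to 61.6 CPM in knockout, almost all of it Pecam1, while Cldn5 and Ly6c1 had 0 reads. Oligodendrocyte markers summed to 47.4 to 379 and 109 to 215 CPM. Both of these sums were highest in wild-type sample 1, the highest library for Ccl2, Ccl3, Ccl6 and Ccl9, and their part in the ligand levels was not tested.

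**Figure D3:**
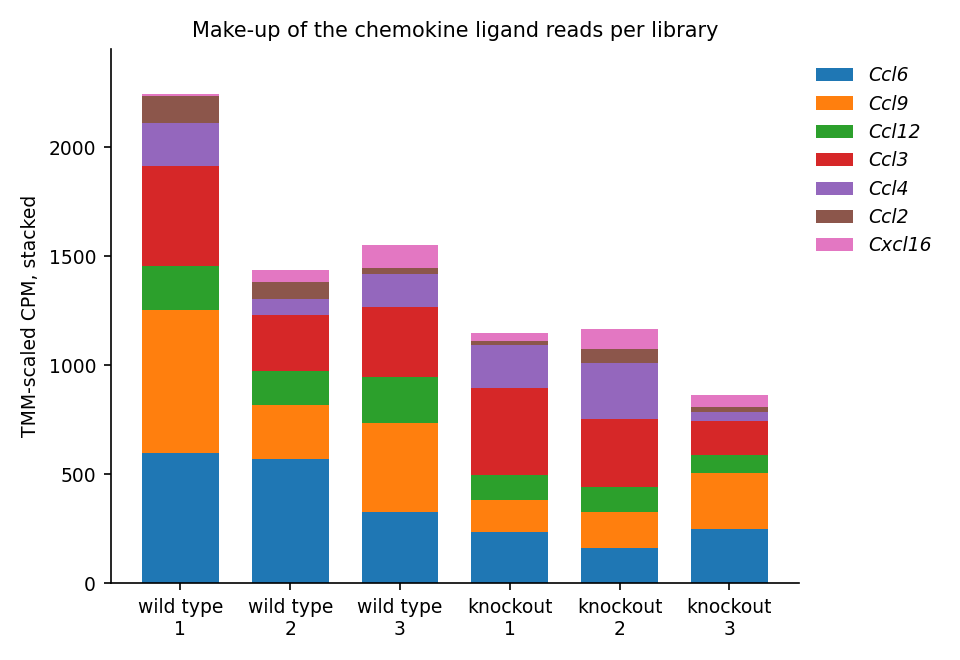
Stacked TMM-scaled CPM of the 7 tested ligands in each library, so that the height is their summed level. Wild-type sample 1 is the tallest and knockout sample 3 the shortest. The Ccl6, Ccl9 and Ccl12 blocks at the base are together shorter in each knockout sample than in any wild-type sample. They are the ligands with the lowest p in these same libraries, so this repeats that result and adds none.

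Summed over the 10 genes, ligand transcripts made up 0.225%, 0.144% and 0.156% of scaled reads in wild-type samples 1 to 3 and 0.116%, 0.116% and 0.0862% in knockout samples 1 to 3. Wild-type sample 1, the shallowest library, was the highest of the 6 for 4 of the 7 tested ligands (Ccl2, Ccl3, Ccl6 and Ccl9) and the lowest for Cxcl16. Knockout sample 3 was the lowest for 4 (Ccl2, Ccl3, Ccl4 and Ccl12). The make-up of the sum differed between samples of 1 genotype. Ccl6 was 26.7%, 39.8% and 20.8% of it in wild-type samples 1 to 3, and Ccl3 was 34.6%, 26.7% and 17.7% of it in knockout samples 1 to 3.

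Levels of different genes were compared per kb of the longest coding transcript in GENCODE M21. On that scale Ccl3 was the most abundant ligand in both genotypes, at 451 and 376 CPM per kb in wild type and knockout. In wild type it was followed by Ccl12 (355), Ccl6 (346), Ccl4 (213), Ccl9 (145), Ccl2 (92.0) and Cxcl16 (21.7). No neighbours in that order were separated, since the samples of each pair overlapped. In knockout Ccl4 (251 CPM per kb) came second, before Ccl12 (195), Ccl6 (149), Ccl9 (63.1), Ccl2 (43.5) and Cxcl16 (21.9). There only Ccl6 and Ccl9 were neighbours whose samples did not overlap. The order of Ccl9 against Ccl12 depends on length, as Ccl9 has more reads over a transcript of 3006 bases against 537 for Ccl12.

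**Figure D4:**
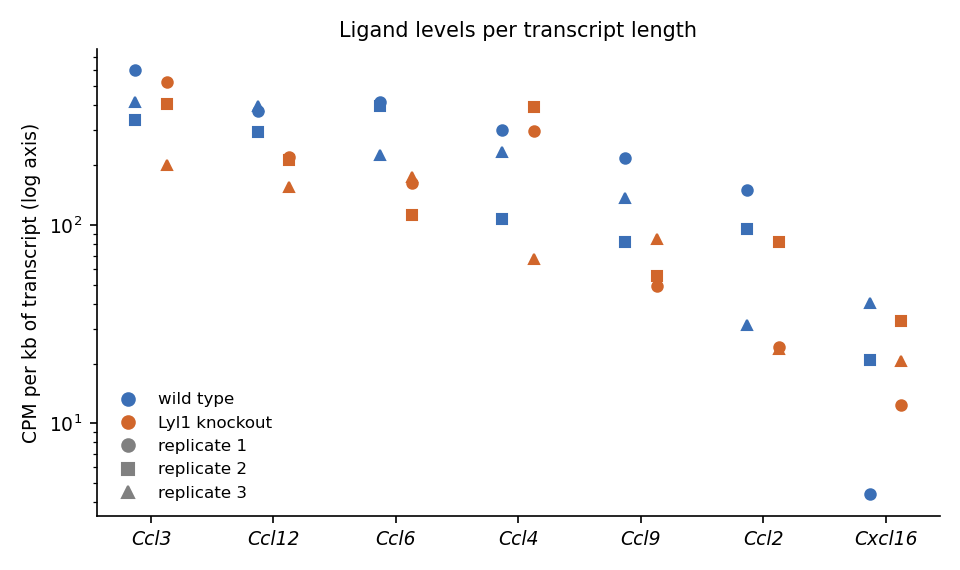
CPM per kb of transcript for the 7 tested ligands on a log axis, 1 point per library. Ccl3 has the highest mean in both genotypes, and Cxcl16 has the lowest and the widest spread in wild type.

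By position 8 of the 10 genes lie on chromosome 11 and 2 on chromosome 5. Ccl2, Ccl7 and Ccl12 share the first cluster with Ccl11, Ccl8 and Ccl1, and Ccl9, Ccl6, Ccl3 and Ccl4 share the second with Ccl5. Levels differed within a cluster, and differences between genotypes were not compared from gene to gene. In the first, Ccl11 and Ccl8 had 0 reads in all samples although they flank Ccl12, and Ccl1 had 1 read in wild-type sample 3 and 1 in knockout sample 2. In the second, Ccl9 and Ccl6 had log2 differences of -1.20 and -1.22, and Ccl3 and Ccl4, 54.8 kb on, had log2 differences of opposite sign, each smaller than its SE. Ccl5, or RANTES, had 490 reads in wild-type sample 3, at 23.4 CPM, and 0 reads in the other samples. Of the non-chemokine genes beside the second cluster, Taf15 was at 4.77 ± 1.40 and 11.0 ± 11.7 CPM (SD, n = 3 each) and Wfdc17 had at most 2 reads.

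**Figure D5:**
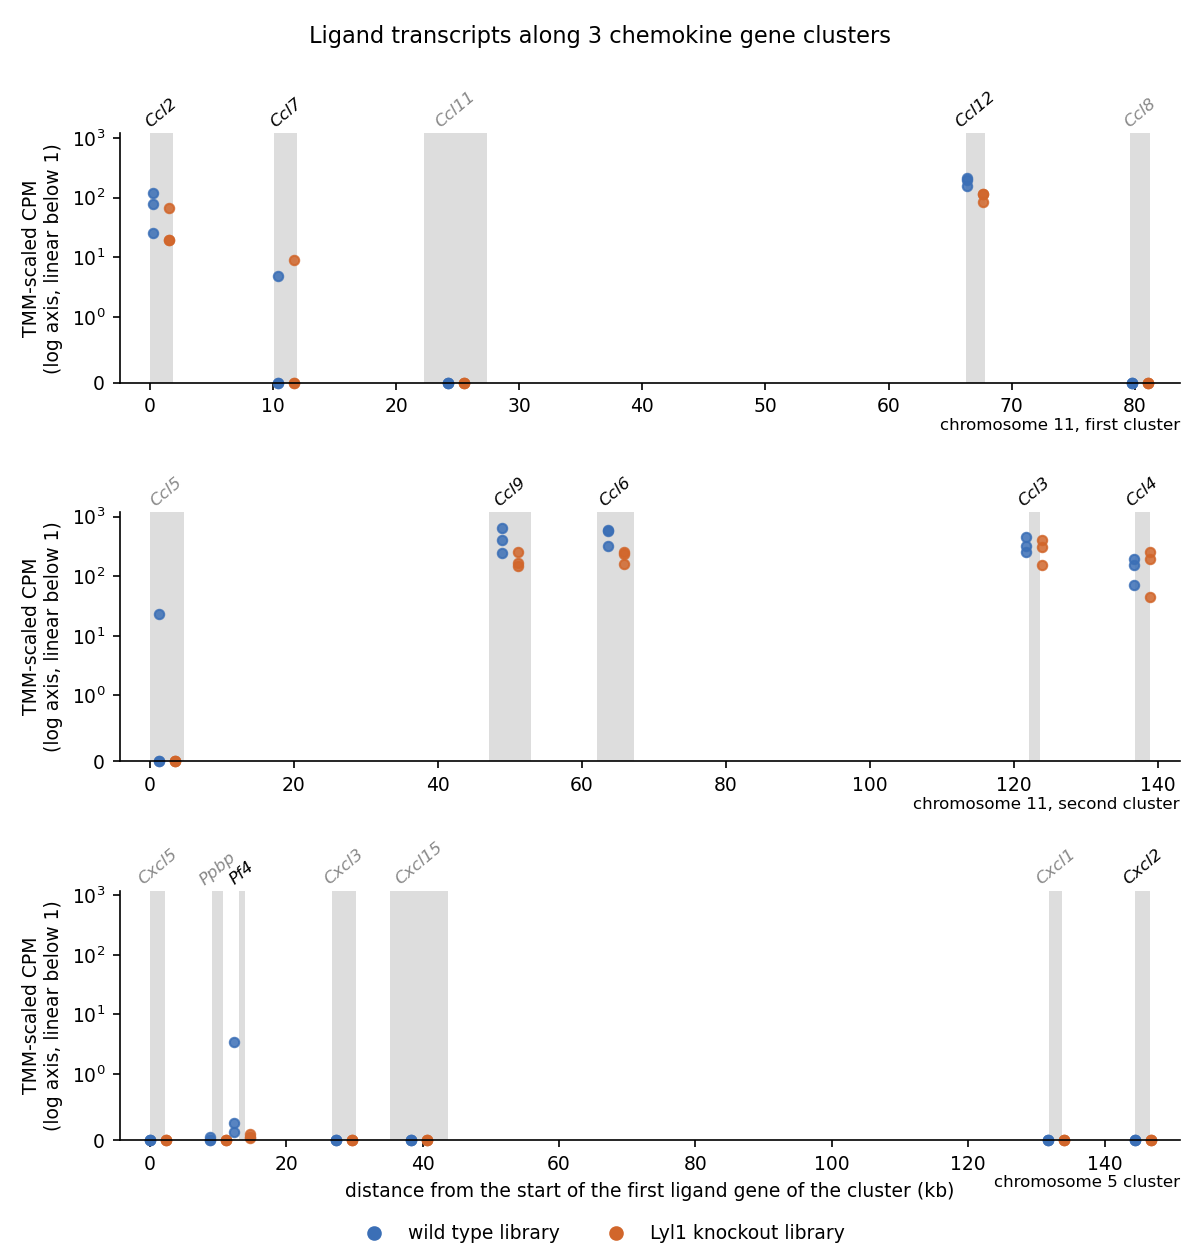
TMM-scaled CPM of every ligand gene along the 3 clusters that hold 9 of the 10 genes, plotted at its distance in kb from the start of the first ligand gene, with 1 point per library and gene bodies in grey. The axis is logarithmic above 1 CPM and linear below, gene names in black are the described ligands, and Ccl1 is left out. Ccl12, at over 10 CPM in every library, stands between Ccl11 and Ccl8 at 0, while Ccl9, Ccl6, Ccl3 and Ccl4 stand side by side at over 10 CPM.

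Transcripts of fast-decaying chemokines carry AU-rich elements in the 3′ UTR, to which decay factors such as Zfp36 (tristetraprolin) bind. In the longest coding transcripts, the heptamer TATTTAT was present in Cxcl2 in 7 places and in Ccl3, Ccl4 and Ccl12 in 1 each, and not in the 3′ UTRs of the other 6. Of 9130 tested genes with a 3′ UTR 27% had it. The first site of each, with the heptamer in capitals, is given with the 8 bases on either side.
Ccl3: tttgtgacTATTTATtctgaaag
Ccl4: atttctatTATTTATgttttagt
Ccl12: cagtgtgaTATTTATtatgatat
Cxcl2: agttcactTATTTATttatctat

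The log2 differences of the 3 detected carriers of the heptamer were -0.86 (SE 0.36) for Ccl12, -0.26 (SE 0.41) for Ccl3 and 0.24 (SE 0.67) for Ccl4, and they were not tested against each other or against the ligands without it. Zfp36 had 1257 ± 46.1 CPM against 1606 ± 254 in knockout (SD, n = 3 each), with a log2 fold change of 0.35 and an unadjusted edgeR p of 0.0751. A word of 50 bases, the read length, from Ccl2, Ccl3, Ccl4, Ccl6, Ccl7, Ccl12 or Pf4 occurred in no other gene's transcripts. For Ccl9 1.97% of such words did, for Cxcl16 16.9%, all of these in Zmynd15, and for Cxcl2 5.84%, all of these in Cxcl3. No such word was shared among the 10 ligands.

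Of 23 regulators of chemokine genes 22 were tested, 11 higher and 11 lower in knockout, with a median log2 fold change of -0.01 and 0 called by edgeR, limma-voom or DESeq2. At an unadjusted edgeR p under 0.05 there were 0. Tnf, the cytokine that induces Ccl2 and Cxcl2, was at 44.9, 68.6 and 28.7 CPM in wild-type samples 1 to 3 and at 5.90, 2.39 and 12.2 CPM in knockout samples 1 to 3. Its samples did not overlap, and the log2 difference was -2.79 (SE 1.22), for which edgeR's unadjusted p was 0.0523. Il6 had 2, 1001 and 504 reads in wild-type samples 1 to 3 and 0, 0 and 16 in knockout samples 1 to 3, with an unadjusted edgeR p of 0.0558. Relb, an NF-kB subunit, was at 54.9 ± 13.4 and 19.6 ± 21.5 CPM without overlap, with an unadjusted edgeR p of 0.274. Its level in knockout sample 1 (43.3 CPM) was just under that in wild-type sample 2 (43.9 CPM). Rela was at 211 and 197 CPM and the inhibitor Nfkbia at 197 ± 28.3 and 208 ± 35.4 CPM. Irf9, which drives interferon-responsive genes, lay the other way from Ccl12, with 69.5 ± 6.08 CPM against 135 ± 52.6 in knockout and no overlap, with an unadjusted edgeR p of 0.0804. Zfp36 was, beside Irf9, the regulator whose knockout samples all lay above wild type. Of the 22 tested regulators 2 were thus lower without overlap and 2 higher. Among all tested genes these shares were 5.19% and 5.97%.

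Of the receptors described here only Ccr1 had enough reads to be tested, and it did not pass. Ccr1, the receptor of CCL6 and CCL9, had 9, 4 and 2102 reads in wild-type samples 1 to 3 and 736, 2044 and 3651 in knockout samples 1 to 3. Wild-type samples 1 and 2 thus had few reads of it, and wild-type sample 3 lay inside the knockout range, with an unadjusted edgeR p of 0.483. Libraries of the same genotype correlated poorly, so few reads in a library need not mean that its cells lacked the transcript. Ccr2, the receptor of CCL2, CCL7 and CCL12, had at most 2 reads in any wild-type library, against 155, 3 and 93 in knockout samples 1 to 3. Cxcr2, the receptor of CXCL2, had at most 1 read in any sample, and Cxcr6, that of CXCL16, had 49 in wild-type sample 3 and 3 in knockout sample 1. Cxcr3, which binds a form of PF4, had 1245 reads in wild-type sample 2 and at most 5 elsewhere.

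Most genes of the remaining chemokine family had few or no reads in most samples. Of 28 other ligand genes 13 had 0 reads in all samples, among them Cxcl1, Cxcl3 and Ccl20, and only Ccl24 and Ccl25 had enough reads to be tested. Ccl24, or eotaxin-2, had 2, 1 and 298 reads in wild-type samples 1 to 3 and 507, 587 and 783 in knockout samples 1 to 3. It was higher in every knockout sample than in any wild-type sample, at 26.5 ± 3.81 against 4.81 ± 8.14 CPM (SD, n = 3 each), a log2 difference of 2.46 (SE 2.12) with an unadjusted edgeR p of 0.281. Ccl25 had 42 reads in wild-type sample 3, 195 in knockout sample 1, 22 in knockout sample 3 and 1 in each of the others, with an unadjusted edgeR p of 0.355. Ccl5, Ccl22, Cxcl17 and Cx3cl1 were found with more than 3 reads in wild-type sample 3 alone, which also had the most genes detected, 15652. Cxcl10 had 24 reads there and 168 in knockout sample 3, and Cxcl12 had 6 and 222, with 0 for both genes in the other samples.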

How the data were processed

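The members and gene lists were chosen with earlier results of these data known. RNA of about 1000 sorted cells per sample was turned into cDNA with a SMARTer kit, amplified by PCR and made into Nextera XT libraries, per the labels' protocols, so PCR copies are counted and strand is lost. The authors deposited raw, unnormalised read counts for each gene symbol. Per the submitters' processing notes, which give no role or order, the tools were STAR 2.5.2b, featureCounts 1.5.1 (Subread), CASAVA 1.8.2 and limma 3.28.21, and the build was GRCm38. The sources used here do not state the annotation or the strand setting. The 92 ERCC spike-in entries were left out. Genes were kept by filterByExpr (minimum count 10, minimum total 15), scaled by TMM and tested with edgeR 4.0.16 (quasi-likelihood F test, R 4.3.3) on genotype alone, with Benjamini-Hochberg adjustment over all tested genes. The standard error is the log2 fold change divided by the root of F. The alternatives were 3 scalings, no filter, DESeq2 1.42.0 on all genes with a read or on those edgeR tested, limma-voom (limma 3.58.1), the replicate number as a block and each sample left out. All ligands were named, and of each other list the 3 tested genes with the smallest p, the most abundant gene and any gene in a count of 5 or fewer. Some further list members, and Lyl1, Xist and genes beside the ligands, were chosen after their values were seen. The edgeR fit was tested on simulated data. No column was left unmapped (0). One receptor gene is not reported here.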

Additional observations from a re-analysis of the deposited data

Results flagged for a closer look

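Entries named for ERCC spike-in sequences, which enter no comparison, held reads in every library, from 21 in wild-type sample 3 to 66 in wild-type sample 1, above the 3 reads that a count of 0 allows. The labels used here name no spike-in step.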

How the results depend on the processing

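No ligand gene was called under any of 14 alternatives. Over the whole table edgeR called 0 genes, against 8 without the filter, 137 with DESeq2 on all genes with a read and 52 with DESeq2 on the genes edgeR tested. The number of ligands lower at an unadjusted p under 0.05, a count added after the data were seen, was 3 and ran from 1 to 3 when 1 sample was left out. It was 1, Ccl6, without wild-type sample 1 or knockout sample 1 or 2. Ccl6, Ccl9, Ccl12 and Ccl2 kept a negative log2 fold change in all 14. The sign turned for Ccl3 (log2 fold change -0.57 to 0.042 with 1 sample left out), for Ccl4 (-0.21 to 0.69) and for Cxcl16 (-0.46 to 0.81, and -0.058 with limma-voom). The cause was not tested. Upper-quartile scaling moved the log2 fold changes of all genes by a median of 0.14 and library size by 0.11, and the split of genes at an unadjusted p under 0.05 went from 121 higher and 174 lower to 133 and 99, and 139 and 124. With limma-voom it was 476 and 187, and without wild-type sample 3 it was 860 and 298. Same-numbered samples did not deviate together (correlations of 0.0014, -0.013 and -0.040 over 6523 genes), which gives no sign of pairing. Libraries of 1 genotype correlated at only 0.333 to 0.682 over these genes on the log2 scale. A shared origin of same-numbered samples could thus go unseen and is not excluded. With the replicate block 0 genes and 0 ligands were called, Ccl6 and Ccl9 stayed under 0.05 (unadjusted p = 0.0191 and 0.0382) and Ccl12 did not (0.105). At this depth a level under 0.104 to 0.264 CPM could not be told from 0.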
